A study of Mus musculus with 8 samples.

Results

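CpG island shores are the stretches that border CpG-dense DNA. Here a shore was a 1 kb window with 10 to 50 listed cytosines that directly adjoined a 1 kb window with 80 or more. Each CpG was listed once per strand, so a shore held 5 to 25 CpGs and a CpG-dense window at least 40. The rule used sequence density alone and no methylation value. It found 18743 shores among 1609820 tested windows of mouse liver on 15 chromosomes, of which chromosome 5 was held in part. They bordered 11790 stretches of CpG-dense windows, and 6913 of those stretches had a shore on each side.

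Methylation was measured by whole-genome bisulfite sequencing of liver DNA from wild-type male C57BL/6J mice, an inbred strain, bought at 8 weeks of age and fed for 28 weeks. The 4 libraries called ND here came from mice on a normal diet and are titled WT. The 4 libraries called NASH came from mice on a diet rich in fat, cholesterol and fructose, a model of nonalcoholic steatohepatitis, which is fatty liver with inflammation and cell injury. Titles and treatment labels contradict each other. The titles, which match the column names, were followed, and every direction below turns round if the treatment labels hold. No label states that each library is a different mouse, so p-values cover only how far libraries scatter. Whole liver holds hepatocytes, macrophages, endothelial and stellate cells, and a changed level within a cell type and a changed mix of cell types cannot be told apart. The table gives a percent level per cytosine without read numbers, and the depth is therefore unknown. A value after ± is the SD of the 4 libraries of a group, and a difference is the NASH mean less the ND mean, in percentage points of methylation.

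In vertebrate genomes most CpGs are methylated by DNA methyltransferases, while CpG islands, which hold many gene starts, are mostly kept free of methylation. Shores lie where the unmethylated island gives way to the methylated surroundings. They are known as places where methylation differs between tissues and between normal and diseased cells more often than inside islands, and the level there often goes with the activity of the gene nearby.

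The border can be seen in the letters. The sequences below are RefSeq promoter stretches of GRCm38.p6, 250 bases before to 50 bases after a listed gene start, written 5′ to 3′ on the strand of the gene with every CpG in capitals. They were chosen after the values were seen, to show an island, an island edge and the sparse CpGs of shores. The Fasn stretch (chr11:120824498-120824797, minus strand) lies inside a CpG-dense stretch, which has a shore on each side. The Egfr stretch (chr11:16751953-16752252, plus strand) crosses an edge, and its first 46 bases are shore. The stretches of Tkfc (chr19:10604209-10604508, minus strand), Errfi1 (chr4:150853546-150853845, plus strand) and Tas1r1 (chr4:152038441-152038740, minus strand) lie wholly in shores.
Fasn: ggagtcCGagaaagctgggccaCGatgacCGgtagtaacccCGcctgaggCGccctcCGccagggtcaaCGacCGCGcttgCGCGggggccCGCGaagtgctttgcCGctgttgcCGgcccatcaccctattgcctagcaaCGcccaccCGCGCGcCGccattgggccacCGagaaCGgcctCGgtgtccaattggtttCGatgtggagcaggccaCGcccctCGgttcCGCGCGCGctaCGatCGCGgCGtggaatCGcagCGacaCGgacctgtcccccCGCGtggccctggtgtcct
Egfr: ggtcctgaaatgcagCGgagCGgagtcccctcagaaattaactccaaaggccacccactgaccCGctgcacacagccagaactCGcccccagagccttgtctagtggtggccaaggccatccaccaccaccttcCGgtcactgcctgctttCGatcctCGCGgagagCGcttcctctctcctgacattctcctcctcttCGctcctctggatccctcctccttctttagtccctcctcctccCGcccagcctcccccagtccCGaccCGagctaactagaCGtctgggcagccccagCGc
Tkfc: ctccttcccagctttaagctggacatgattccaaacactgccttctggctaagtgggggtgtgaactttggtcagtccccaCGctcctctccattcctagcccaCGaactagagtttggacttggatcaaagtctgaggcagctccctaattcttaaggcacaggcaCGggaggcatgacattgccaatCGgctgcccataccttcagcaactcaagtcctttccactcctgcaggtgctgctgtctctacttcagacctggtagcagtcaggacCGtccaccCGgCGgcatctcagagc
Errfi1: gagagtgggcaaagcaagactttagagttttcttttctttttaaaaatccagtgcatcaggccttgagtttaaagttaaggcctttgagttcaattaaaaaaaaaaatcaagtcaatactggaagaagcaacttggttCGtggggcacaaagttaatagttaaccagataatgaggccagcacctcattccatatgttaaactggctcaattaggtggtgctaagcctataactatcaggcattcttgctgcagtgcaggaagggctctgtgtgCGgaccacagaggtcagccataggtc
Tas1r1: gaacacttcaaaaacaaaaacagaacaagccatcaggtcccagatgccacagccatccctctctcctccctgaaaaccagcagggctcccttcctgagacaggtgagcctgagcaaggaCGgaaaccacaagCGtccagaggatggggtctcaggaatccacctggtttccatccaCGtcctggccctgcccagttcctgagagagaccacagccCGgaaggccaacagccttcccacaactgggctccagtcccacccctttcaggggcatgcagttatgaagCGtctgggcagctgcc
The 300 bases of Fasn, which encodes fatty acid synthase, hold 39 CpGs, and their mean level was 0.304% ± 0.423 in ND and 1.89% ± 3.38 in NASH. Egfr encodes the epidermal growth factor receptor, and 13 of its 15 printed CpGs lie in the CpG-dense window, where the mean was 2.21% ± 2.49 in ND and 0.962% ± 0.785 in NASH. The first 2 CpGs of Egfr, in the shore, were at 10.7% ± 12.2 in ND and 26.9% ± 35.6 in NASH, so the groups overlapped there. The 7 printed CpGs of Tkfc, the gene of triokinase in fructose breakdown, were at 21.1% ± 12.9 in ND and 45.1% ± 3.39 in NASH. The 2 CpGs of Errfi1, a feedback inhibitor of the Egfr protein, were at 28.0% ± 7.32 in ND and 40.9% ± 11.2 in NASH, and here too the groups overlapped. The 5 CpGs of Tas1r1, a subunit of the umami taste receptor, were at 74.4% ± 7.61 in ND and 53.0% ± 9.04 in NASH. The island stretch with 39 CpGs was thus almost free of methylation, and the shore stretches with 2 to 7 CpGs were at intermediate levels.

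Shores as a class had intermediate levels in both groups, and no difference in their mean was detected. Their mean was 51.1% ± 0.209 in ND and 51.2% ± 0.323 in NASH, against 15.9% ± 0.139 in ND and 15.8% ± 0.216 in NASH for CpG-dense windows and 78.8% ± 0.638 in ND and 78.3% ± 0.707 in NASH for 1056305 distant windows, which had 10 to 50 listed cytosines and lay more than 10 windows from any CpG-dense one. The shore mean in the NASH libraries was 51.1%, 50.9%, 51.7% and 51.1%, and in the ND libraries 51.2%, 50.8%, 51.3% and 51.2%. The groups overlapped, and the difference was 0.0771 points (exact permutation test over the 70 assignments, two-sided p = 0.800, where the smallest possible p is 0.0286). At equal numbers of listed cytosines, shores lay below distant windows by 27.2 points in the mean of the 8 libraries and in 8 of 8 (exact sign-flip test, p = 0.00781, the smallest that 8 libraries can give). This gap was -27.5 ± 0.274 points in ND and -26.9 ± 0.286 in NASH, and the difference of 0.521 points between groups did not pass the test (exact permutation p = 0.0571). With every zero left out the gap was -15.9 points, and its difference between groups was 0.0442 points, which did not pass the test either.

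The class spans nearly the whole scale. Of the shores, 20.5% had a mean level under 20%, 56.8% were at 20% to 80% and 22.7% were at 80% or more. Of CpG-dense windows, 78.2% were under 20% and 16.6% at 20% to 80%, while of distant windows 1.87% were under 20%, 39.2% were at 20% to 80% and 59.0% were higher. Shores with 10 to 19 listed cytosines were at 60.9% in ND and those with 40 to 50 at 36.9%, so shores with more CpGs had the lower level. The median SD within a group was 4.23 points for shores at 20% to 80%, against 8.36 for CpG-dense windows and 4.87 for distant windows in that range.

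**Figure D1:**
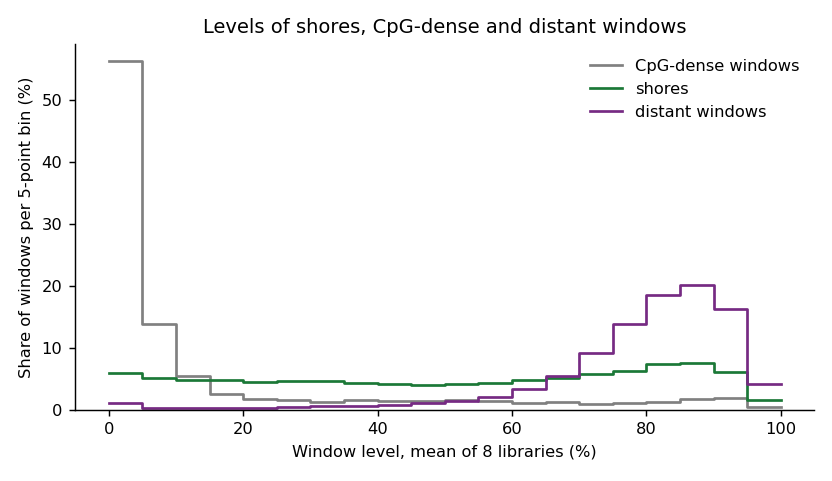
Share of windows (%) in each 5-point bin of window level (mean of the 8 libraries, %) for shores, CpG-dense windows and distant windows. Shores spread over the scale, with 56.8% of them between 20% and 80%, while CpG-dense windows pile up near 0% and distant windows near 85%.

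The rise from island to surroundings took place mostly within the shore window. For 16772 shores with a CpG-dense window on 1 side, the ND mean was 11.9% ± 0.233 in the part of the dense window farthest from the edge and 22.8% ± 0.0803 in its last 100 bases. It was 28.3% ± 0.103 in the first 100 bases of the shore, 52.8% ± 0.245 at 400 to 500 bases and 66.0% ± 0.318 at 900 to 1000 bases. NASH libraries followed the same course, with 11.8%, 22.7%, 28.2%, 52.9% and 66.2% in those bins. None of these 5 bins differed between groups beyond the spread (exact permutation p from 0.257 to 0.686). Windows 2 steps from a CpG-dense window were at 69.1% in ND, 3 steps out at 71.0% and 7 steps out at 78.2%, close to the 78.8% of distant windows.

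**Figure D2:**
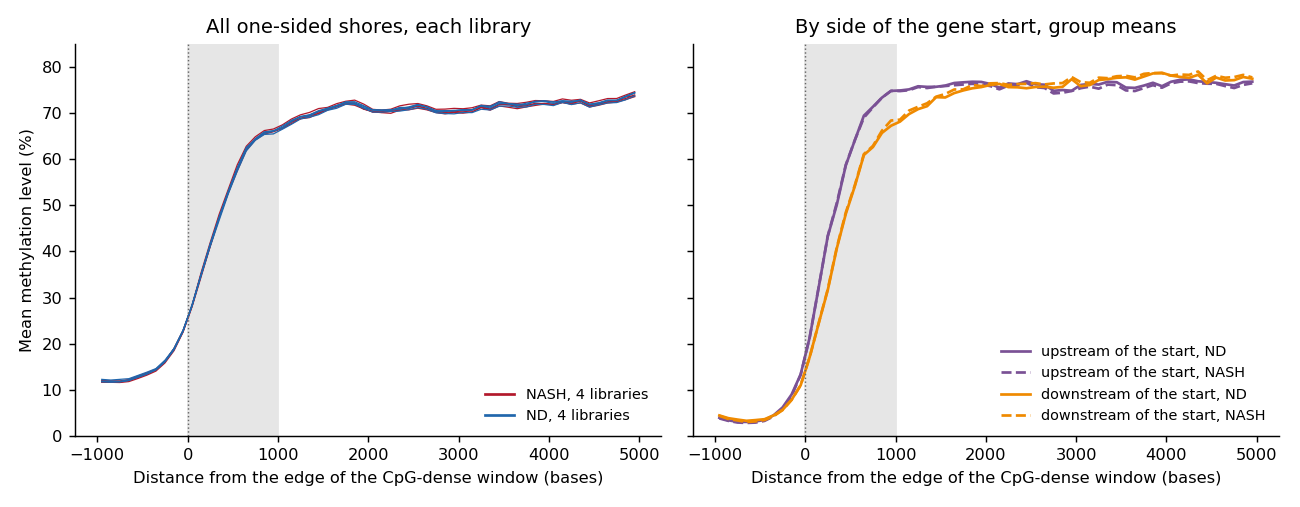
Mean level (%) in 100-base bins by distance from the edge of the CpG-dense window, negative inside it, with the 1 kb of the shore shaded. Left, each of the 8 libraries over all one-sided shores, which rise from 28.3% to 66.0% in ND across the shore with NASH and ND on top of each other; right, group means of shores upstream and downstream of the gene start, where the downstream shores are lower across the shaded shore.

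Shores downstream of a listed gene start were less methylated than those upstream of it. Sides could be told for shores whose CpG-dense stretch held a listed start on 1 strand. The 3832 downstream shores were at 45.0% ± 0.285 in ND and 45.2% ± 0.348 in NASH, and the 4038 upstream shores at 55.0% ± 0.161 in ND and 55.0% ± 0.344 in NASH. Downstream shores were lower by 9.88 points in the mean of the libraries and in 8 of 8, and by 7.64 points at equal numbers of listed cytosines (exact sign-flip p = 0.00781 for each). Shores beside a stretch with starts on both strands, 1644 in number, were at 44.5% ± 0.318 in ND and 45.2% ± 0.354 in NASH. Their difference of 0.729 points had an exact permutation p of 0.0286, which became 0.0714 after Benjamini-Hochberg adjustment over the 5 side classes. The 117 shores with CpG-dense DNA on both sides had the lowest level, 30.8% ± 0.220 in ND and 31.7% ± 0.344 in NASH, with the same 2 p-values. The remaining 9112 shores had no listed start beside them and were at 53.4% ± 0.213 in ND and 53.4% ± 0.317 in NASH. Against the other one-sided shores, the group difference beside starts on both strands was larger by 0.720 points. Against the other shores, that of shores with CpG-dense DNA on both sides was larger by 0.782. That of downstream shores exceeded that of upstream ones by 0.276. Each of these contrasts had an exact permutation p of 0.0286, adjusted 0.0357 over 5 contrasts. At equal numbers of listed cytosines the last was 0.272 points (exact permutation p = 0.0857). The 5 contrasts included this one and a contrast between low and high shores, given below, which is not about sides. The outcome of that contrast was fixed by the level classes, and the adjusted p rests in part on it. These side classes were set after values had been seen, and the list of starts is not complete.

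Within the class, low and high shores differed in opposite directions. Grouped by the mean of all 8 libraries, the 2634 shores at 10% to 25% were at 16.8% ± 0.243 in ND and 18.0% ± 0.203 in NASH, with 17.9%, 17.8%, 18.2% and 18.1% in the NASH and 16.8%, 16.5%, 17.1% and 16.9% in the ND libraries. The 4075 shores at 25% to 50% were at 36.6% ± 0.294 in ND and 37.6% ± 0.213 in NASH, and the 2059 under 10% at 4.34% ± 0.110 in ND and 4.70% ± 0.113 in NASH. In each of these 3 classes all NASH libraries lay above all ND libraries, by 1.19, 1.07 and 0.361 points. At the other end, the 3991 shores at 75% to 90% were at 83.3% ± 0.177 in ND and 82.4% ± 0.480 in NASH and the 1436 shores above them at 93.4% ± 0.174 in ND and 92.7% ± 0.264 in NASH, with all NASH libraries below all ND libraries. These 5 differences had the smallest exact permutation p the design allows, 0.0286, and 0.0343 after Benjamini-Hochberg adjustment over the 6 classes. The 4548 shores at 50% to 75% differed by -0.397 points (exact permutation p = 0.229). Shores under 50% minus shores at 75% or more gave -62.9 ± 0.178 points in ND and -61.1 ± 0.317 in NASH, a gap narrower by 1.85 points in NASH. The classes pooled here had all separated the groups in these directions. The separation of this contrast was therefore fixed in advance, and it is no further test. Without ND replicate 2 the difference under 10% was 0.312, and without ND replicate 1, 2, 3 or 4 that at 75% to 90% was -0.905, -1.05, -0.977 or -0.962 points (exact permutation p = 0.0571 for each). Above 90% it was -0.717, -0.730 and -0.725 without ND replicate 1, 3 and 4, with the same p. The level limits were set after values had been seen.

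The higher values of the low classes did not pass the test with every zero left out, but did with only doubtful zeros left out. Zeros made up 30.2% to 31.7% of the listed cytosines of shores in NASH and 31.7% to 32.7% in ND libraries. With every zero left out, the difference was 0.206 points under 10% (exact permutation p = 0.686), 0.0223 at 10% to 25% (p = 0.943) and -0.368 at 25% to 50% (p = 0.486). An unmethylated cytosine is also a 0, so this setting cannot tell such values from positions without reads. With only doubtful zeros left out, which are zeros among methylated neighbours, those 3 classes kept their direction and p, while the class at 75% to 90% was at -1.11 points with an exact permutation p of 0.0571, in this setting and with every zero left out.

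Distant windows had the same signs from 10% up. They differed by 1.07 points at 10% to 25% and by 3.93 at 25% to 50% (exact permutation p = 0.0286 for each), and by -1.01 points at 75% to 90% and -0.736 above 90% (exact permutation p = 0.0571 for each), all with an adjusted p of 0.0857 over the 6 levels. Under 10% their difference was -0.122 points (exact permutation p = 0.0857). At 25% to 50% the difference of shores was smaller than that of distant windows by 2.87 points, and under 10% it was larger by 0.483 (exact permutation p = 0.0286, adjusted 0.0857 over the 6 levels, for each). At the other 4 levels the exact permutation p of the difference between shores and distant windows ran from 0.400 to 0.943.

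**Figure D3:**
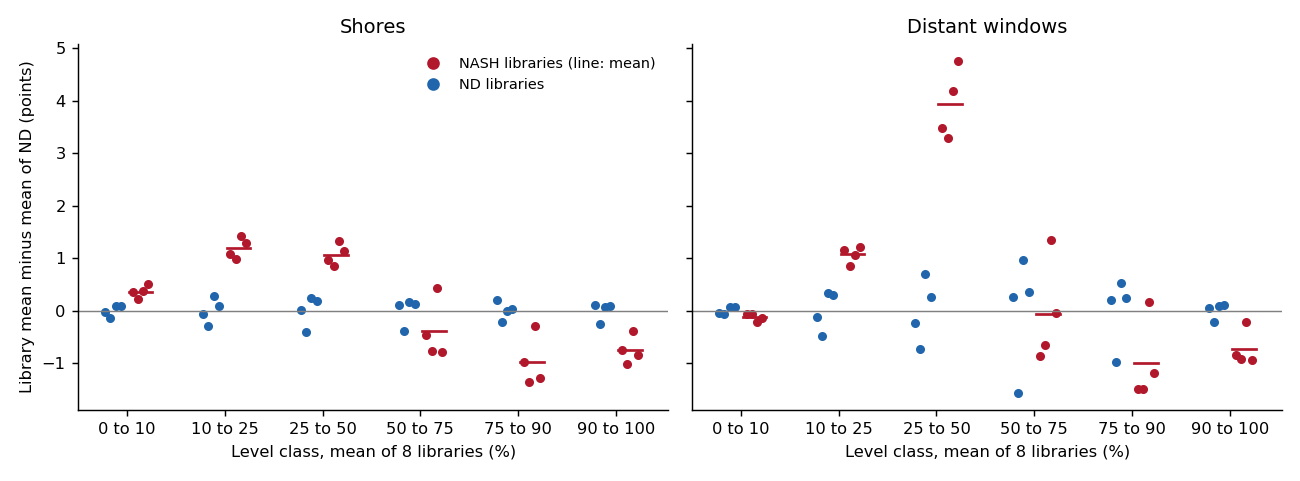
Mean level of each library minus the mean of the 4 ND libraries (percentage points), by level class, for shores (left) and distant windows (right); short lines are NASH means. In shores the NASH points lie above 0 up to 50% and below 0 from 75% on, and the largest difference, 3.93 points, is that of distant windows at 25% to 50%.

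Single shores were tested with limma on window levels, with Benjamini-Hochberg adjustment over all 1609820 windows and a threshold of 0.05. In this test 0 shores were called higher and 1 was called lower in NASH. Over all windows 3 were called higher and 3 lower, 0.000186% in each direction, and nothing is read about shores from a single call. At an unadjusted p under 0.05, 1693 shores were higher and 1282 lower, or 9.03% and 6.84%, against 4.33% higher and 6.58% lower over all windows. The 4 NASH libraries all lay above the 4 ND libraries at 1030 shores, or 5.50%, where 2.78% of all windows did so. They all lay below at 796 shores, or 4.25%, against 3.71% of all windows. Windows 2 steps from CpG-dense DNA had nearly the same shares, 5.29% and 4.32%, and distant windows had 2.81% and 3.95%. These shares were matched neither for level nor for listed cytosines. At 25% to 50%, 9.13% of shores and 17.98% of distant windows were higher without overlap. At 50% to 75% it was 4.7% and 5.09%, and at the other levels the share was larger in shores. From 30 listed cytosines on, shores had the smaller share lower, 4.13% against 4.92% at 30 to 39. The share higher stayed larger in shores at each number of listed cytosines. No trait of shores is read from these shares. Among downstream shores the shares were 8.35% and 5.53%, and among those beside starts on both strands 9.06% and 4.08%. They were 4.85% and 4.38% among upstream shores, and 3.93% and 3.72% among shores with no listed start. By place, they were 7.08% and 4.93% inside genes, 5.40% and 4.22% at gene ends, and 2.42% and 2.88% between genes. Only protein-coding genes count here, and a gene end is the start or the finish of a gene. The first principal component of shore levels, with 26.5% of the variance, had NASH and ND libraries at opposite ends.

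The 1 called shore was at 0 throughout in NASH. It lies between genes (chromosome 14, listed positions 107164000 to 107164999), with 15%, 15%, 15% and 12.5% in the ND libraries and 0% in every NASH library. All 80 of its NASH values were exactly 0, while the adjoining CpG-dense window was at 42.6% in ND and 45.1% in NASH. The fit gave -14.4 points, SE 0.631, limma adjusted p = 0.00343. Whether those zeros stand for positions without reads was not tested.

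No shore passed the threshold upwards, and the smallest adjusted p in that direction was 0.0593. By the rule for that case, the 6 higher shores with the smallest p are named, and none of them was called. The Cyp7b1 shore (chromosome 3, listed positions 18242000 to 18242999) lies inside the gene of an oxysterol hydroxylase that leads into bile acid synthesis. It was at 33.4%, 33.9%, 36.7% and 36.4% in the NASH libraries and at 17.4%, 20.4%, 18.6% and 17.7% in the ND libraries, 16.6 points, SE 1.33, limma adjusted p = 0.0593. The NASH libraries lay far above all ND libraries, and the adjoining CpG-dense window stayed at 3.22% in ND and 4.71% in NASH.

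The Mfn2 shore (chromosome 4, listed positions 147903000 to 147903999) lies downstream of the start of the mitofusin 2 gene, whose product fuses mitochondria. It was at 14.9% ± 1.70 in ND and 29.8% ± 1.75 in NASH (14.8 points, SE 1.29, limma adjusted p = 0.0593). The Lrrc3 shore (chromosome 10, listed positions 77901000 to 77901999) was at 41.1%, 46.4%, 48.6% and 49.9% in the NASH and 22.5%, 20.9%, 18.2% and 23.8% in the ND libraries, 25.2 points, SE 2.31, limma adjusted p = 0.0685. It held 48 listed cytosines, near the upper limit for a shore, and its dense neighbour was at 0.741% in ND and 1.46% in NASH. The C2cd2 shore was at 3.34% ± 1.08 in ND and 12.7% ± 1.44 in NASH, and the shore shared by Cept1 and Dram2, which start on opposite strands, at 8.90% ± 0.642 in ND and 15.5% ± 0.440 in NASH. The Rhobtb1 shore was at 26.5% ± 0.631 in ND and 40.2% ± 0.535 in NASH, and this difference of 13.8 points turned to -11.9 when every zero was left out.

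Limma shares information on spread between windows, and windows whose listed cytosines are all 0 in a library bear on it: the prior degrees of freedom were 2.75 with them and 6.12 without. Without them, a setting added after the data had been seen, 446 windows were called higher and 99 lower, 0.0282% and 0.00626% of the 1581027 tested. Among the 17714 shores in that fit, 10 were higher and 4 lower. Those 14 shores are described next as calls of that alternative, while none of them passed in the fit set out in the design.

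The Fdft1 shore (chromosome 14, listed positions 63176000 to 63176999) had the largest difference of the 14, 35.8 points (SE 4.75). Fdft1 encodes squalene synthase, the first enzyme committed to sterol synthesis. The NASH libraries were at 76.8%, 67.4%, 75.4% and 69.0% and the ND libraries at 29.8%, 31.1%, 49.4% and 35.1%. The adjusted p was 0.0408 without the windows at 0 and 0.0862 with them. The groups were well apart, the next window out was at 56.2% in ND and 79.7% in NASH, and the dense neighbour was at 2.68% in ND and 4.61% in NASH.

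The Egfr shore, upstream of the start printed above (chromosome 11, listed positions 16751000 to 16751999), was at 29.6%, 34.9%, 33.1% and 32.8% in NASH and at 17.6%, 17.4%, 11.6% and 14.4% in ND libraries. Its difference of 17.4 points had an adjusted p of 0.0408 without and 0.0685 with the windows at 0. The Epas1 shore, within the gene of a hypoxia-inducible factor subunit (chromosome 17, listed positions 86756000 to 86756999), was at 5.28% ± 3.40 in ND and 26.2% ± 4.33 in NASH. The Rarres1 shore, in a gene named for its response to retinoic acid, was at 14.3% ± 0.995 in ND and 31.5% ± 4.14 in NASH. The shore at the ends of Fpgt and Lrriq3 was at 29.7% ± 3.02 in ND and 49.5% ± 1.77 in NASH, and the shore upstream of Clic4, a chloride channel family gene, at 23.4% ± 2.51 in ND and 45.2% ± 4.97 in NASH. Cyp7b1, Mfn2 and Lrrc3 were called here too, with adjusted p of 0.0408, 0.0442 and 0.0408. The last of the 10, upstream of 2410018L13Rik, was at 78.1% ± 2.88 in ND and 94.7% ± 3.40 in NASH, but its difference was -0.472 points once doubtful zeros were left out.

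Of the 4 shores called lower in that alternative, 2 lie in genes. The Bspry shore (chromosome 4, listed positions 62481000 to 62481999), downstream of the start, was at 46.5%, 44.6%, 50.6% and 46.0% in the NASH and 72.4%, 75.1%, 75.7% and 76.5% in the ND libraries, a difference of -28.0 points. The Slc43a2 shore (chromosome 11, listed positions 75533000 to 75533999), in the gene of an amino acid transporter, was at 49.3%, 56.0%, 43.2% and 42.7% and 78.0%, 76.2%, 70.6% and 76.7%, a difference of -27.6 points. The dense neighbours had lower means in NASH too, with 9.71% in ND and 4.80% in NASH beside Bspry and 27.1% in ND and 13.4% in NASH beside Slc43a2. A shore between genes on chromosome 15 was at 21.6% ± 2.01 in ND and 8.64% ± 2.05 in NASH. Another on chromosome 14 was at 95.8% ± 1.02 in ND and 84.7% ± 1.45 in NASH, and its difference of -11.1 points became -0.689 without doubtful zeros.

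**Figure D4:**
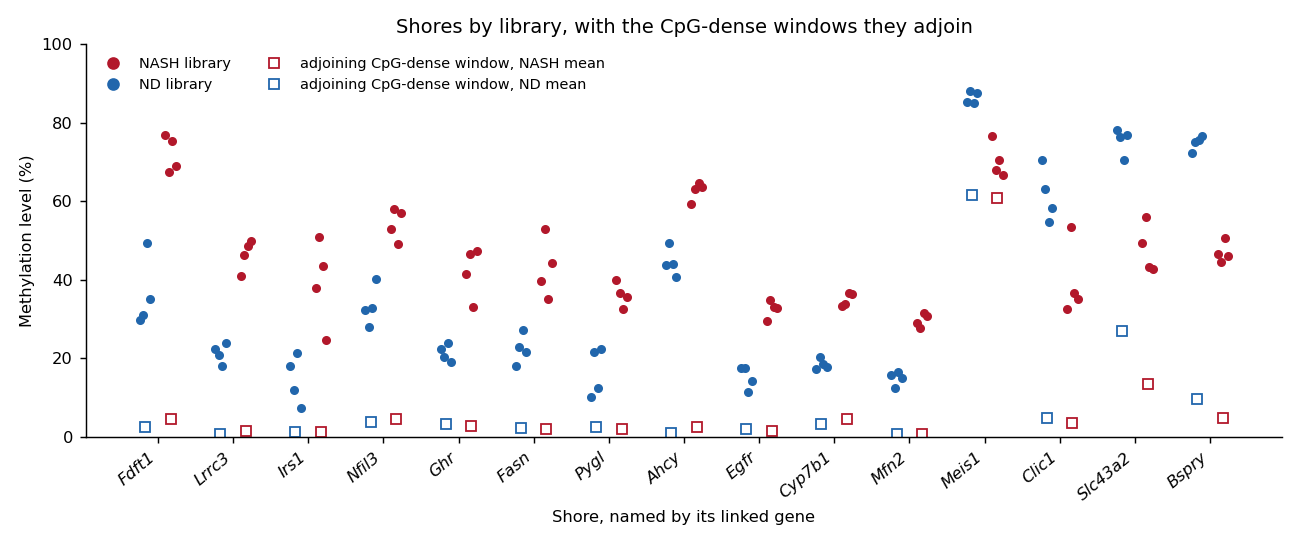
Level (%) in each library of 15 shores named in the text (points) and mean level of the CpG-dense window each adjoins (open squares). The groups do not overlap at any of the 15, which were chosen for that or for a small p, and the dense neighbours lie under 10% except those of Meis1 and Slc43a2.

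Differences of shores and of the island beside them had a low correlation across windows. Across 18626 shores the correlation between the difference of a shore and that of its dense neighbour was 0.117. Across 17643 shores it was 0.247 with the next window away from the island, and across 6913 stretches it was 0.120 between the shores on the 2 sides. These are correlations across windows of the same 8 libraries, given as a description. No such value for neighbouring distant windows was set beside them, so whether they are low for neighbours was not tested. Of the stretches with 2 shores, 52 had both sides higher in all NASH libraries, 19 had both sides lower, and 22 had 1 of each, or 0.752%, 0.275% and 0.318%. Among 765831 pairs of distant windows 2 windows apart, the spacing across 1 CpG-dense window, those shares were 0.307%, 0.236% and 0.230%. Single shores were also higher without overlap more often than single distant windows, 5.50% against 2.81%. The larger share of pairs therefore does not show that the 2 sides of an island go together more than distant pairs do. No stretch had a called shore on both sides.

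The 6 stretches with the largest summed difference among the 52 are named here, chosen after their values were seen. At Irs1, which encodes a docking protein of the insulin receptor, 1 shore was at 38.0%, 50.9%, 43.4% and 24.8% in NASH and 18.1%, 12.04%, 21.5% and 7.39% in ND libraries, and the shore on the other side was at 64.2% ± 3.11 in ND and 74.8% ± 2.62 in NASH. The dense stretch between them was at 1.16% in ND and 1.17% in NASH. At Scp2, a sterol carrier gene, the shores were at 26.4% ± 4.08 in ND and 49.0% ± 8.97 in NASH downstream and 65.2% ± 2.12 in ND and 76.5% ± 4.98 in NASH upstream of the start. At Acsf2, an acyl-CoA synthetase family gene, they were at 31.4% ± 5.90 in ND and 54.6% ± 9.15 in NASH downstream and 17.4% ± 6.73 in ND and 33.4% ± 1.32 in NASH upstream. The Fads1 desaturase gene had shores at 48.8% ± 3.09 in ND and 66.1% ± 5.29 in NASH and at 15.9% ± 5.07 in ND and 31.4% ± 6.83 in NASH. Slc19a2, a thiamine transporter gene, had 17.4% ± 3.98 in ND and 31.6% ± 3.23 in NASH downstream and 24.2% ± 6.20 in ND and 44.3% ± 9.05 in NASH upstream, and Plec, a cytolinker gene, had 36.6% ± 11.3 in ND and 60.8% ± 5.96 in NASH and 20.1% ± 2.68 in ND and 26.9% ± 3.87 in NASH. Adjusted p ranged above the threshold for all of them, from 0.109 for the downstream Slc19a2 shore to 0.290 for a Plec shore.

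Both sides were lower at fewer stretches. Ldb1, a cofactor of LIM-domain proteins, had 64.6% ± 7.97 in ND and 46.0% ± 5.76 in NASH downstream and 55.3% ± 4.22 in ND and 47.3% ± 1.604 in NASH upstream of its start. Tns3, a focal adhesion gene, had 65.8% ± 5.41 in ND and 51.5% ± 2.77 in NASH and 84.5% ± 2.42 in ND and 74.7% ± 6.22 in NASH. Dusp2, a phosphatase gene of MAP kinase signalling, had 42.1% ± 4.47 in ND and 32.4% ± 5.73 in NASH upstream and 82.8% ± 6.90 in ND and 72.7% ± 3.46 in NASH downstream. Vwa1, a matrix protein gene, had 64.9% ± 7.66 in ND and 47.2% ± 6.83 in NASH and 82.9% ± 1.75 in ND and 78.7% ± 1.24 in NASH. None was called.

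Gene lists show where such shores lie. The counts below are of shores linked to a list's genes, their background without overlap is 5.50% higher and 4.25% lower over all shores (2.78% and 3.71% over all windows), and the median difference over all shores was -0.0426 points. Of all 18743 shores, 8953 were higher in NASH. The shares without overlap vary with level. At 10% to 25% they were 9.8% higher and 3.15% lower, and at 25% to 50% 9.13% higher and 4.07% lower. Among downstream shores at those levels 14.1% and 12.8% were higher without overlap. The counts of the lists were not matched for level or side. Many listed genes have several shores, and those named were chosen by the smallest p or for lack of overlap. The lists were chosen with earlier results known, and no shore of any list was called in the fit set out in the design.

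Shores of sterol and fatty acid synthesis genes were mostly higher. Of 39 shores at 20 of 27 genes, 30 were higher in NASH, 9 of them without overlap against 1 lower, and the median difference was 3.5 points. By the rule of smallest p, Fdft1 and Fasn stand for the list. The Fasn shore (chromosome 11, listed positions 120822000 to 120822999), downstream of the promoter printed above, was at 39.8%, 52.9%, 35.1% and 44.4% in NASH and at 18%, 23.0%, 27.2% and 21.6% in ND libraries (20.6 points, SE 3.73, limma adjusted p = 0.126), while its dense neighbour stayed at 2.24% in ND and 2.17% in NASH. The Fasn shore upstream of that stretch, shared with Ccdc57, overlapped at 21.5% ± 4.52 in ND and 21.8% ± 7.36 in NASH. The other shores without overlap were those of Srebf1, the regulator of lipid synthesis (22.9% in ND and 36.5% in NASH), of the synthesis enzymes Sqle (23.1% in ND and 36.6% in NASH), Fdps (45.6% in ND and 60.4% in NASH), Cyp51 (17.4% in ND and 26.2% in NASH) and Lss (65.3% in ND and 73.2% in NASH), of Insig2, which retains the sterol sensor in the endoplasmic reticulum (21.9% in ND and 27.9% in NASH), and of the phosphatidate phosphatase gene Lpin1 (13.4% in ND and 20.4% in NASH). The 1 lower shore was that of Acacb, the acetyl-CoA carboxylase found at mitochondria (71.7% in ND and 55.8% in NASH).

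Of 12 shores at glucose, fructose and insulin genes, 10 were higher, 6 of them without overlap, and 0 were lower without overlap. The Pygl shore (chromosome 12, listed positions 70226000 to 70226999), in the liver glycogen phosphorylase gene, was at 39.99%, 36.6%, 32.5% and 35.7% in NASH and 10.2%, 21.5%, 12.5% and 22.3% in ND libraries (19.5 points, SE 3.02, limma adjusted p = 0.103). A shore shared by Fndc4 and Gckr, the glucokinase regulator gene, was at 4.35% ± 2.52 in ND and 11.6% ± 1.11 in NASH. The Khk shore, in the fructose kinase gene, was at 3.03% in ND and 10.9% in NASH, and the Foxo1 shore at 0.978% in ND and 4.85% in NASH. The Tkfc shore whose promoter is printed above is not on the list. It was at 16.6% ± 9.11 in ND and 35.8% ± 4.48 in NASH over its 32 listed cytosines.

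Of 11 shores at genes of fatty acid oxidation and ketone body formation, 3 were higher and 1 was lower without overlap. A shore upstream of Acadm, the medium-chain acyl-CoA dehydrogenase gene, was at 1.19% ± 1.44 in ND and 7.27% ± 2.72 in NASH. The downstream Cpt2 shore, in the gene of an enzyme that passes acyl groups into mitochondria, was at 10.6% ± 2.26 in ND and 20% ± 4.87 in NASH. Acot1 had 35.0% in ND and 46.2% in NASH, and it belongs to a cluster of near-identical genes that can share reads. Bdh1, the gene of the enzyme that makes hydroxybutyrate, had the lower shore, 63% ± 9.28 in ND and 43.7% ± 7.48 in NASH. Of 4 shores of bile acid and sterol export genes, the Cyp27a1 shore, in the sterol 27-hydroxylase gene, was higher without overlap at 17.3% ± 3.34 in ND and 32.6% ± 7.83 in NASH, and the Fgfr4 shore overlapped at 74.96% ± 2.62 in ND and 81.0% ± 8.55 in NASH.

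Of 11 shores on the list of growth hormone and IGF genes, 2 were higher and 0 lower without overlap. Egfr, the epidermal growth factor receptor gene, was placed on that list too. Beside Egfr this was the Ghr shore (chromosome 15, listed positions 3584000 to 3584999), upstream of the growth hormone receptor start, at 41.4%, 46.6%, 33.1% and 47.4% in NASH and 22.3%, 20.5%, 24.0% and 19.1% in ND libraries (20.6 points, SE 3.10, limma adjusted p = 0.101). Every NASH library lay above every ND library there. Of 19 shores of DNA methylation and one-carbon genes, 15 were higher, 4 of them without overlap, and 0 were lower without overlap. The Ahcy shore, in the gene that clears S-adenosylhomocysteine (chromosome 2, listed positions 155075000 to 155075999), was at 59.3%, 63.0%, 64.5% and 63.5% in NASH and 43.7%, 49.3%, 44% and 40.8% in ND libraries (18.1 points, SE 2.80, limma adjusted p = 0.103). The Pemt shore, in a methyltransferase gene of phosphatidylcholine synthesis, was at 22.7% ± 3.31 in ND and 30.8% ± 3.18 in NASH, and the Cbs shore, in the cystathionine synthase gene, at 33.9% in ND and 45.7% in NASH.

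Of 20 shores of circadian clock genes, 13 were higher, 6 of them without overlap, and 0 were lower without overlap. The shore of Nfil3, a repressor of clock output genes (chromosome 13, listed positions 52977000 to 52977999), was at 53.0%, 58.1%, 49.1% and 57.0% in NASH and 32.3%, 28%, 32.7% and 40.2% in ND libraries (21.0 points, SE 3.26, limma adjusted p = 0.104). The shore of Nr1d1, which encodes the clock repressor REV-ERB alpha and overlaps Thra, was at 26.8% ± 3.49 in ND and 40.6% ± 3.17 in NASH, beside a CpG-dense window at 66.1% in ND and 63.6% in NASH. Cry2 had 17.4% in ND and 32.8% in NASH, Tef 8.45% in ND and 17.6% in NASH, Nr1d2 16.4% in ND and 24.4% in NASH and Per3 13.6% in ND and 18.7% in NASH.

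Shores of inflammation and growth control genes had median differences below 0, as had all shores together. Most of them overlapped between the groups, as most shores did. Of 9 inflammation shores 2 were higher, with 0 higher and 1 lower without overlap and a median of -2.55 points. The lower one was the shore of Nfkbia, an inhibitor of NF-kappa-B (chromosome 12, listed positions 55493000 to 55493999), at 35.1%, 26.9%, 34.8% and 29.3% in NASH and 40.1%, 36.5%, 37.0% and 44.5% in ND libraries (-8.03 points, SE 2.67, limma adjusted p = 0.324). The shore of Irf1, an interferon regulatory factor gene, overlapped at 35.7% ± 3.14 in ND and 30.3% ± 2.46 in NASH. Of 19 growth control shores 7 were higher, with 0 higher and 2 lower without overlap and a median of -0.706 points. The Apc shore, in a tumour suppressor gene of Wnt signalling, was at 31.3% ± 1.13 in ND and 26.4% ± 1.05 in NASH. A Wnt5a shore overlapped at 69.7% ± 4.05 in ND and 59.7% ± 5.35 in NASH, and another Wnt5a shore did not, at 67.4% in ND and 62.4% in NASH.

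The 68 shores of developmental homeobox and related factor genes had 3 higher and 4 lower without overlap. Meis1 (chromosome 11, listed positions 19013000 to 19013999) was at 86.4% ± 1.57 in ND and 70.4% ± 4.33 in NASH, and Hoxb3 (chromosome 11, listed positions 96334000 to 96334999) at 29.8% ± 5.03 in ND and 48.7% ± 4.91 in NASH, where the CpG-dense neighbour also was at 20.3% in ND and 41.5% in NASH. At Pax2 both listed shores without overlap were lower, at 47.2% in ND and 32.9% in NASH and 20.6% in ND and 14.2% in NASH. The 39 shores of imprinted genes had 0 higher and 1 lower without overlap, the shore of Igf2r beside the Airn start, at 93.0% ± 1.96 in ND and 89.3% ± 1.75 in NASH. The Zdbf2 shore overlapped at 34.6% ± 3.98 in ND and 44.5% ± 4.98 in NASH. The 17 shores of housekeeping genes had 2 higher and 3 lower without overlap, among them Ppia at 88.7% ± 1.76 in ND and 80.4% ± 3.04 in NASH and the shore between Sdha and Ccdc127 at 3.13% ± 1.02 in ND and 5.26% ± 0.785 in NASH.

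Markers of liver cell types had few shores. The 20 hepatocyte markers had 8 shores at 3 genes, 7 of them higher and 1 without overlap. That was a Prox1 shore with CpG-dense DNA on both sides, at 1.25% ± 0.323 in ND and 3.89% ± 1.22 in NASH, and the Foxa1 shore overlapped at 17.1% ± 2.62 in ND and 22.9% ± 3.78 in NASH. Of 3 macrophage shores 2 were higher and all overlapped, among them Spi1 at 85.5% ± 4.77 in ND and 86.6% ± 5.22 in NASH. The Cd68 shore, shared with Mpdu1 and upstream of the Mpdu1 start, was at 70.3% ± 1.99 in ND and 69.4% ± 3.93 in NASH. Of 6 lymphocyte shores 3 were higher and all overlapped, with Runx3 at 26.4% ± 2.95 in ND and 31.8% ± 4.45 in NASH and Tbx21 at 62.2% ± 3.68 in ND and 58.8% ± 4.81 in NASH. Of 6 endothelial shores 2 were higher and all overlapped, with a Sox17 shore at 19.1% ± 3.84 in ND and 15.2% ± 2.50 in NASH and another at 73.1% in ND and 73.6% in NASH. The Stab1 shore, shared with Nt5dc2, was at 81.8% ± 8.81 in ND and 73.9% ± 7.25 in NASH. Of 8 cholangiocyte shores 3 were higher and all overlapped, with Sox9 at 80.8% ± 8.40 in ND and 72.0% ± 3.29 in NASH and the 3 Epcam shores at 70.1% ± 2.40 in ND and 65.8% ± 2.37 in NASH, at 49.4% in ND and 53.7% in NASH and at 81.8% in ND and 83.9% in NASH. Of 5 stellate cell and myofibroblast shores 2 were higher. Des was lower without overlap at 84.6% ± 3.57 in ND and 77.9% ± 2.60 in NASH, and Lox overlapped at 25.4% ± 2.50 in ND and 32.3% ± 4.13 in NASH. The Des difference of -6.69 points became -3.4 without doubtful zeros. The 11 neutrophil markers had 0 shores. The part of cell mix in the differences above was not tested.

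**Figure D5:**
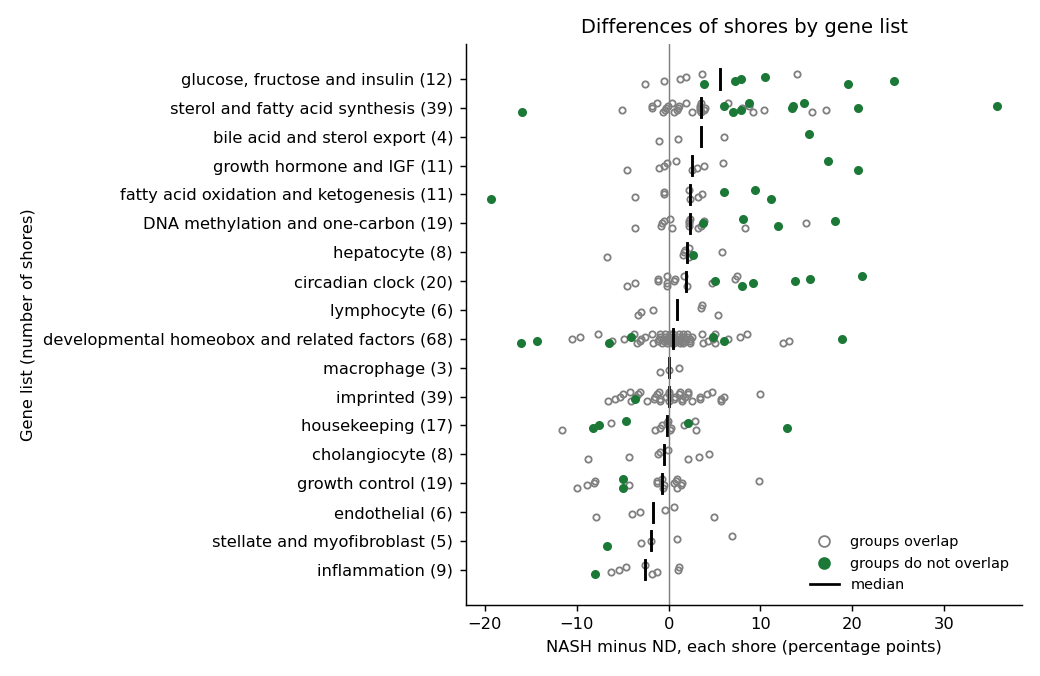
Difference NASH minus ND (percentage points) of each shore linked to 18 gene lists, with the number of shores in brackets; filled points are shores whose groups do not overlap and black lines are medians. Medians run from -2.55 points for inflammation to 5.56 for glucose, fructose and insulin genes, and no shore shown was called in the fit set out in the design.

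Of the shores with printed promoters, chosen after their values were seen, Tkfc is given above. Shores at gene ends as a class differed by 0.0828 points (exact permutation p = 0.771). The Errfi1 shore was at 45.4%, 41.9%, 44.5% and 51.1% in NASH and 36.8%, 27.7%, 21.3% and 22.3% in ND libraries over 24 listed cytosines, a difference of 18.7 points. The shore with the Tas1r1 start, which adjoins the CpG-dense start of Nol9, was at 54.4%, 56.2%, 55.4% and 53.4% in NASH and 66.5%, 69.6%, 67.2% and 65.9% in ND libraries, a difference of -12.5 points. The groups did not overlap at either, and neither was called (limma adjusted p = 0.141 and 0.142). Without doubtful zeros the difference was 21.15 points at Errfi1 and -9.13 at Tas1r1.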

How the data were processed

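DNA was sonicated, bisulfite-treated and sequenced, per the labels' protocols. The authors deposited percent methylation per CpG cytosine and strand, with no read counts, so no interval or floor could be given. The submitters' processing notes name FastQC and mm10; aligner and caller: not given in the sources used here. Of the table, 30729668 positions on 15 chromosomes were used; the rest was not analysed here. Listed positions lie 1 base above the 1-based positions of GRCm38.p6, since all 290334 CpGs of RefSeq promoter stretches were listed on both strands at that shift. Window positions are as listed, and sequence coordinates are 1-based.

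Levels were averaged per window without weights, for windows with at least 6 rows. Groups follow the titles. The planned model of read counts needs counts, so limma 3.58.1 (R 4.3.3, trended prior variance) was used on percent levels, with Benjamini-Hochberg adjustment over all windows. Adjusted p-values of shores are limma's. Class means were compared by exact permutation. A gene is linked to a window if its span, extended by 1000 bases, overlaps it. A gene end is the start or the finish of a gene, and reaches 1000 bases outside and 500 inside it. Only protein-coding genes were used for links and places.

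A doubtful zero is a 0 whose 10 nearest positions in that library have a median of 50% or more. Shores were named as the 12 largest called differences per direction or, with none, the 6 smallest p, and the 2 smallest p per list. Members and lists were chosen with earlier results of these data known; other named shores, level limits, sides and printed promoters were chosen after values were seen. A few genes of the lists are not reported here and enter no list count. Alternatives changed the zeros, the density limits, the minimum of rows, the scale, the prior, the block and the libraries used.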

Additional observations from a re-analysis of the deposited data

Results flagged for a closer look

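Among 248 groups of 4 libraries examined, class means and named shores together, 16 had a library far from the other 3 of its group, and chance gives about 1 in 20. For class means this was ND replicate 4 over CpG-dense windows, at 16.1%, and ND replicate 2 over shores with 20 to 29 rows (53.7%), with 30 to 39 rows (47.9%), inside genes (51.1%), at levels of 50% to 75% (63.2%) and above 90% (93.2%). The ND replicate 2 value was the lowest of its group in all 5.

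Among single shores in NASH, replicate 1 stood apart at Myh9 (26.7%), replicate 2 at Foxa1 (17.2%), Aopep (17.1%) and a shore between genes near the start of chromosome 5 (73.9%), replicate 3 at Prox1 (2.07%) and replicate 4 at Slc25a33 (71.5%). In ND, replicate 4 stood apart at the shore upstream of Clic4 (19.6%), at Sox9 (68.3%) and at the called shore of chromosome 14 (12.5%), and replicate 2 at Itsn2 (58.6%).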

How the results depend on the processing

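The gap between shores and distant windows kept its direction and side of the threshold under all settings run, and was -15.9 points without any zero, -19.9 with CpG-dense windows of 60 or more rows, -31.2 to -25.6 under the others, and -27.3 to -27.1 with 1 library left out. The group difference of that gap kept its direction under all of them, but was 0.0442 points without any zero and 0.324 with CpG-dense windows of 60 or more rows (neither past the test; 0.439 to 0.657 with 1 library left out). The group difference of the shore mean, 0.0771 points, was never past the test: it was -0.0287 without doubtful zeros, -0.695 without any zero, -0.117 with CpG-dense windows of 60 or more rows, and -0.0774 to 0.172 with 1 library left out, negative without NASH replicate 3 or ND replicate 2. Calls of higher shores numbered 2 without any zero, 10 without windows at 0 in a library, 4 with at least 20 rows tested, and 0 under all other settings. Calls of lower shores, 1 in the design, numbered 2 without any zero, 4 without windows at 0, 2 and 0 with CpG-dense windows of 60 and 100 rows, 3 with at least 20 rows, 0 with a constant prior variance, and 1 to 2 with 1 library left out (2 without ND replicate 3). Same-numbered libraries did not deviate together (correlations from -0.0207 to 0.0176), so no pairing by number was detected, which does not exclude a shared batch. With the replicate block 0 shores were called lower, and differences of level classes were 0.361, 1.19, 1.07, -0.397, -0.973 and -0.753 points from low to high, each with the smallest p that 4 pairs allow, 0.125, or above. Without any zero these classes gave 0.206, 0.0223, -0.368 and, at 75% to 90%, -1.11 points, the last also without doubtful zeros (exact permutation p = 0.0571). With 1 library left out they ran from 0.312 to 0.407, 1.09 to 1.28, 0.926 to 1.14, -0.672 to -0.266, -1.20 to -0.848 and -0.872 to -0.662 points. Differences of single shores that turned sign were those of Sox17 (0.332 without any zero), Spi1 (-1.36 without doubtful or any zeros, -0.611 to 3.51 with 1 library left out, and -0.351 and -0.141 without ND replicate 2 and 4), Rhobtb1 (-11.9 without any zero), 2410018L13Rik (-0.472 without doubtful or any zeros) and Cd68 (-2.43 to 0.607 with 1 library left out, and 0.000235 without ND replicate 3). The cause was not tested in any of these. Of 1362 values of 99 named shores under other settings, 1327 kept direction and side of the threshold. Of the others, 23 passed it only in the other setting, 1 no longer passed it and 11 turned sign. Only 1 of the 99 was called in the design, so a kept side mostly means that an uncalled shore stayed uncalled, whatever its change in size. The unknown depth limits every single-shore value.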

Other observations

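Beyond the gene lists, large differences without overlap lay at shores of varied genes. Those given here are among the 12 largest in each direction over shores with at least 20 rows, were chosen by their values, and were not called. Upward they were at Syvn1, a ubiquitin ligase gene of the endoplasmic reticulum (47.5% ± 9.004 in ND and 74.2% ± 6.41 in NASH), at Myh9, a non-muscle myosin gene (13.4% ± 5.54 in ND and 40.05% ± 9.01 in NASH), at Hsd17b4, a peroxisomal oxidation gene (34.9% ± 6.49 in ND and 61.0% ± 6.56 in NASH), at Slc25a33, a mitochondrial carrier gene (24.5% ± 3.62 in ND and 50.3% ± 14.2 in NASH), at Tymp, the thymidine phosphorylase gene (21.7% ± 4.01 in ND and 46.8% ± 8.04 in NASH), at Phlda1 (21.2% ± 7.60 in ND and 45.5% ± 8.63 in NASH) and at Aopep, an aminopeptidase gene (3.66% ± 4.11 in ND and 27.4% ± 6.91 in NASH). A shore between genes near the start of chromosome 5 was at 42.7% ± 6.59 in ND and 67.8% ± 4.14 in NASH, beside a methylated CpG-dense window at 87.5% in ND and 90.1% in NASH.

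Downward they were at Ltbp3, which binds latent TGF-beta (86.9% ± 5.21 in ND and 63.2% ± 9.58 in NASH), at Clic1, a chloride channel family gene (61.6% ± 6.83 in ND and 39.5% ± 9.48 in NASH), at Rbm33 (86.8% ± 4.99 in ND and 65.4% ± 10.3 in NASH), at Msi2, an RNA-binding protein gene (51.1% ± 4.54 in ND and 29.9% ± 7.84 in NASH), at Fnbp1 (71.1% ± 3.93 in ND and 50.6% ± 6.87 in NASH), at Hdac5, a histone deacetylase gene (73.7% ± 4.05 in ND and 53.9% ± 9.11 in NASH), at Tor4a (75.6% ± 6.38 in ND and 56.0% ± 9.28 in NASH) and at Itsn2, an endocytosis gene (61.7% ± 2.05 in ND and 42.8% ± 6.43 in NASH). The CpG-dense neighbours of Clic1, Msi2, Hdac5 and Itsn2 were under 5% in both groups, and that of Tor4a was at 34.7% in ND and 25.1% in NASH.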
